A study of Homo sapiens with 3 samples.

Results

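PTPRD on chromosome 9 band p23 and the gene-poor stretch beside it were described through the HMGA1 peaks whose summits lie between 8.0 and 13.5 Mb of chromosome 9 (hg19). The members were chosen by the position of their summits alone, in a region picked with earlier results of these data in view, so its density and all measures of the same peaks are given as description, with no test. The list called against input DNA (the input list) held 2109 such peaks of 385953, and the list called against histone H3 (the H3 list) held 1948 of 263033. The gene body was taken as 8.31 to 10.61 Mb, which is 2.3 Mb, and the 2.89 Mb after it are called the desert. That name stands for position and not for a lack of genes throughout. The first 0.31 Mb, before the gene, held 55 input-list and 46 H3-list peaks.

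The data come from DAMI cells, an established leukaemic line whose disease state the labels give as MPN/AML, grown in RPMI medium with serum. There were 3 libraries: 1 ChIP-seq library for HMGA1, 1 for H3 and 1 of input DNA without antibody. All 3 share the line, the labels name no genotype or agent, and the line's identity could not be checked, since no expression was measured. Both lists come from the same HMGA1 reads, so a site found in both is not a replicate, and with 1 library per antibody no p-value is given. Intervals are 95% and cover counting error only.

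HMGA1 is a small architectural protein whose AT-hook motifs sit in the minor groove of AT-rich DNA, where it bends the fibre and competes with linker histone. Gene-poor parts of the genome are typically AT-rich and are often packed as late-replicating chromatin at the nuclear lamina. PTPRD encodes receptor-type protein tyrosine phosphatase delta, an adhesion receptor best known from the synapses of neurons and as a tumour suppressor lost in several cancers. It is a very long gene read from the minus strand, so its 5′ end faces the desert and its 3′ end lies near 8.31 Mb. In the RefSeq gene order of GRCh38, used here for neighbours only, no protein-coding gene lies between PTPRD and TYRP1, and 7 long non-coding RNA genes and 4 pseudogenes do. TYRP1, a melanosome protein of pigment cells, is followed by LURAP1L and by MPDZ, a scaffold protein with many PDZ domains. The hg19 positions of TYRP1, LURAP1L and MPDZ were not read. The far part of the desert, with its last 1 Mb, may therefore hold protein-coding genes. Sequences of the peaks are not printed, because a genome of the files' build was not used here.

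HMGA1 peaks were dense in both the gene and the desert. Over the 5.5 Mb there were 383.5 input-list peaks per Mb (interval 367.3 to 400.2), 2.9 times the 132.4 per Mb of all autosomes, and 354.2 H3-list peaks per Mb (338.6 to 370.3), 3.9 times 90.9. The region is 0.191% of the autosomal length and held 0.546% of all input-list peaks and 0.741% of all H3-list peaks. Peaks covered 18.1% (input list) and 16.6% (H3 list) of its bases, against 4.83% and 3.12% of the autosomes.

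In bins of 100 kb the input-list number ran from 14 to 58, with a median of 39, and the H3-list number from 12 to 55, with a median of 37. The autosomal median was 12 and 8 among bins with a peak. Bins with at least 40 peaks numbered 27 of 55 in the input list, where 3.18% of autosomal bins reach that number, and 22 of 55 in the H3 list, where 1.12% do. Because the region was picked with its density known, nothing is read from this excess.

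Density rose through PTPRD from its 3′ end towards its 5′ end. Cut in 3 equal parts, the gene held 238.7 input-list peaks per Mb at the 3′ end (205.4 to 275.9), 379.6 in the middle (337.2 to 425.8) and 447.4 at the 5′ end (401.3 to 497.3). The H3 list gave 196.96 (166.8 to 231.0), 340.4 (300.4 to 384.3) and 413.5 per Mb (369.2 to 461.6). The 3′ part thus lay below both other parts by more than counting error in both lists, and the middle and 5′ intervals overlapped. The gradient was not even. Single bins stood out from their neighbours, such as 8.5 to 8.6 Mb with 39 input-list peaks between bins of 25 and 22, and 9.5 to 9.6 Mb with 58 between 38 and 37. The second of these was the fullest bin of the region in the input list, and it lies inside the gene.

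**Figure D1:**
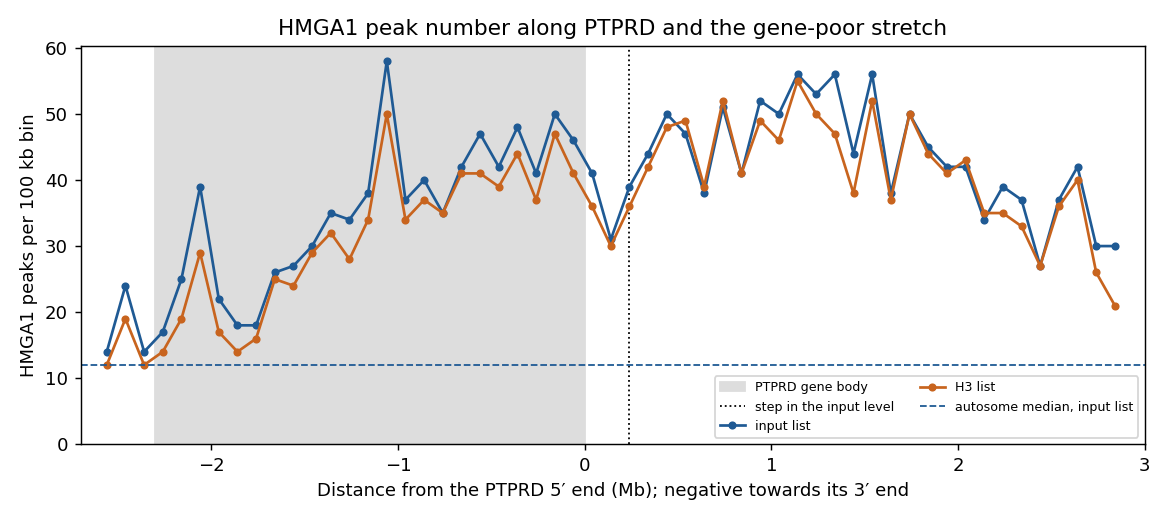
HMGA1 peaks per 100 kb bin in the input list (blue) and the H3 list (orange), by distance in Mb from the 5′ end of PTPRD; grey marks the gene body, the dotted line the step in the input level 0.24 Mb past the gene, and the dashed line the autosomal median of 12 peaks in the input list. Numbers climb through the gene to the 5′ end, stay high in the desert and fall over its last 1 Mb.

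Taken as wholes, the gene body was less dense than the desert. It held 817 input-list peaks, or 355.2 per Mb (331.3 to 380.4), and the desert 1237, or 428.0 per Mb (404.5 to 452.6), a ratio of 0.83. In the H3 list the gene body held 729 peaks, or 316.96 per Mb (294.4 to 340.8), and the desert 1173, or 405.9 per Mb (383.0 to 429.8), a ratio of 0.781. Of the 3 parts of the gene, only the 3′ part (238.7 and 196.96 per Mb) was below the desert by more than counting error. The middle had lower values than the desert (379.6 and 340.4), but its intervals (337.2 to 425.8 and 300.4 to 384.3) overlapped those of the desert. The 5′ part alone stood at 1.05 (input list) and 1.02 (H3 list) times the desert. Its density intervals (401.3 to 497.3 and 369.2 to 461.6 per Mb) overlapped those of the desert. In the 0.5 Mb on either side of the 5′ end the gene side held more peaks, 227 against 203 in the input list and 208 against 190 in the H3 list. No interval was taken for these 0.5 Mb counts. Against only the 0.243 Mb of desert before the step in control level described below, the ratio was 0.99 (input list) and 0.949 (H3 list). The gene then had -1.96 and -2.53 percentage points of covered bases relative to the desert, and a spacing 54.5 and 69.5 bp longer. Only 87 and 81 desert peaks enter that ratio, and the lower density of the gene as a whole is not seen against them beyond counting error. These splits of gene and desert were made after the bins were seen.

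The desert was itself uneven. From the step in control level described below to 12.5 Mb it held 479.5 input-list peaks per Mb (446.7 to 514.2) and 458.3 H3-list peaks per Mb (426.2 to 492.2). Its last 1 Mb held 360.0 (323.8 to 399.2) and 337.0 per Mb (301.98 to 374.97), below the preceding part by more than counting error in both lists. The bins with most peaks in the desert were 11.7 to 11.8, 11.9 to 12 and 12.1 to 12.2 Mb, with 56 input-list peaks each. The fullest bin of the H3 list was 11.7 to 11.8 Mb, with 55 peaks. The fewest, 27 in the input list, lay from 13 to 13.1 Mb, and 21 in the H3 list from 13.4 to 13.5 Mb. The fewest of the whole region lay before the gene, with 14 input-list peaks at 8.0 to 8.1 and at 8.2 to 8.3 Mb.

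Taken as wholes, the desert also had wider peaks than the gene. The median width was 376 bp (361 to 393) in the desert and 342 bp (325 to 358) in the gene in the input list, and 375 bp (359 to 392) against 335 bp (320 to 350) in the H3 list. The intervals did not overlap in either list, and both parts were above the whole-list medians of 297 and 283 bp. The contrast was not uniform. The gene's 5′ part had a median of 350 bp in both lists (328 to 387 and 327 to 380), which overlapped the desert. The desert's last 1 Mb had 349.5 bp (326 to 383) in the input list and 346 bp (316 to 375) in the H3 list. Peaks of 1 kb or more made up 7.92% of the desert peaks and 4.41% of the gene peaks in the input list, and 8.01% and 3.16% in the H3 list, against 2.0% and 1.42% of the whole lists. Together with density this put 21.6% of desert bases and 15.2% of gene bases under input-list peaks, and 20.2% and 13.6% under H3-list peaks. The fullest 100 kb by this measure, 11.5 to 11.6 Mb, was 32.0% covered in the input list.

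The widest peaks lay mainly in the desert over input and were split between both parts over H3. The widest input-list peak ran from 12025782 to 12028291, 2510 bp, with 110 HMGA1 reads at its summit and a fold of 9.56. Others ran from 11538754 to 11541209 (2456 bp), from 9451225 to 9453618 inside PTPRD (2394 bp), from 12293699 to 12295963 (2265 bp) and from 11850645 to 11852880 (2236 bp). The widest H3-list peaks were inside PTPRD. One ran from 10001538 to 10004753, 3216 bp, where the input list had 2 peaks, and another from 10178869 to 10181389, 2521 bp, where it had 3. The reverse also occurred, as the input-list peaks from 9451225 and from 12293699 each overlapped 2 H3-list peaks. A peak called as 1 block over either control could therefore be several over the other.

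Neighbouring summits lay closer together in the desert as a whole than in the gene as a whole. The median spacing was 1679 bp (1565 to 1772) in the desert and 1926 bp (1792 to 2125) in the gene in the input list, and 1708 bp (1597 to 1832) against 2178 bp (1987 to 2347) in the H3 list. The whole-list medians were 3258 and 4168 bp. Pairs closer than 1 kb made up 26.1% of desert pairs and 21.3% of gene pairs in the input list, and 26.2% and 18.5% in the H3 list, against 15.2% and 12.96% of all pairs on each whole list. Within the gene the median spacing was 2917 bp at the 3′ end, 1950 bp in the middle and 1697 bp at the 5′ end in the input list. The desert's last 1 Mb had 2079 bp (1817 to 2228) in the input list and 2156 bp (1856 to 2457) in the H3 list. Both intervals overlapped those of the gene.

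Long gaps were most frequent per Mb at the 3′ side. Of 43 spacings over 10 kb in the input list, 13 fell in the 0.767 Mb of the gene's 3′ part, 3 in its middle and 0 in its 5′ part. Another 9 lay before the gene and 18 in the longer desert, 10 of those in its last 1 Mb. The longest in the input list separated summits at 8073956 and 8100246, a gap of 26.3 kb before the gene. It was followed by 22.0 kb from 8855538 and 21.5 kb from 8354080, both inside PTPRD. The longest of the H3 list was 30.2 kb from 8847272, then 27.2 kb from 8375624, and the gap before the gene was the third. The spacing varied about as much as its mean, with a coefficient of variation of 0.96 in the gene and 0.89 in the desert in the input list, and it was more even in the gene's 5′ part, at 0.734.

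**Figure D2:**
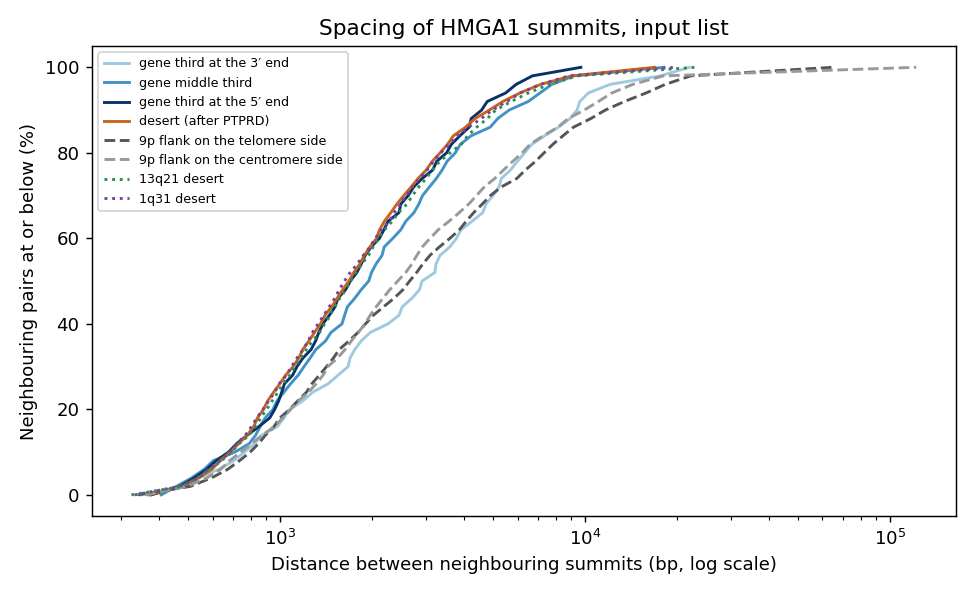
Cumulative share (percent) of neighbouring summit pairs in the input list at or below each spacing (bp, log scale), for 3 equal parts of PTPRD, the desert after it, the 9p flanks and equally long stretches of the 13q21 and 1q31 deserts. The gene's 3′ part has wide spacings like the 9p flanks (medians of 2917, 2656 and 2427 bp), and its 5′ part lies near the deserts.

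Median HMGA1 reads at the summits were highest in the part of the region where the control level was highest. A peak is called only where its reads exceed its control, so some of this link is built into the calling. Reads and control levels are not in the files and were recovered from each peak's fold and p-value. The control level is given as a multiple of the lowest level the peak caller used, its floor, which was 2.78 reads for input and 2.19 for H3. Of the input-list peaks 0 of 2109 lay at the floor here and 0 of 1948 of the H3 list, against 36.4% and 42.9% of the whole lists. Both 9p flanks likewise had 0 peaks at the floor in either list.

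The input level stood at 3.35 times the floor from 8.0 to 8.7 Mb. It was 2.57 times from there to 10.85 Mb, through most of PTPRD and 0.24 Mb past its 5′ end, and 4.8 times from that point on. The zones were fitted to these same control levels, in a fit that always returns 3 zones, so their differing levels are a description. The best single split between summits fell between 10852567 and 10854132 in the input list and between 10871220 and 10874371 in the H3 list. The rise itself was less sharp. In the 100 kb bins from 10.7 to 11 Mb the input level was 2.69, 3.6 and 4.82 times the floor, and the H3 level 2.48, 2.69 and 4.17 times. The H3 level in the same 3 zones was 3.29, 2.29 and 4.39 times its floor. Median HMGA1 reads were 37, 35 and 59 in the input list and 40, 37 and 61 in the H3 list. The rise in reads therefore lay with the rise in both controls, inside the desert and not at the end of the gene. From the first zone to the second both controls fell, and the reads changed little. What raises the controls was not tested.

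Across that step the peak number changed less than the reads. The 0.5 Mb below it held 208 input-list peaks with a median of 36 reads, and the 0.5 Mb above it 227 with 56 reads, while the input level went from 2.57 to 4.61 times the floor. The H3-list numbers were 192 and 222, with 37.5 and 56.5 reads. Over 1 Mb on each side there were 425 and 472 input-list peaks (385.6 to 467.4 and 430.4 to 516.6 per Mb) and 393 and 460 H3-list peaks (355.1 to 433.8 and 418.9 to 504.0), so the intervals overlapped in both lists. The median width over the same 1 Mb was 354 bp (333 to 387) before and 405 bp (371 to 436) after the step in the input list. These intervals also overlapped, which does not show that number or width stayed the same. Covered bases rose from 19.6% to 24.97% (input list) and from 18.1% to 24.2% (H3 list). Peaks of 1 kb or more rose from 5.88% to 9.32% and from 5.85% to 9.57%. Pairs closer than 1 kb rose from 21.9% to 29.5% and from 19.9% to 29.6%. No interval was taken for these shares.

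**Figure D3:**
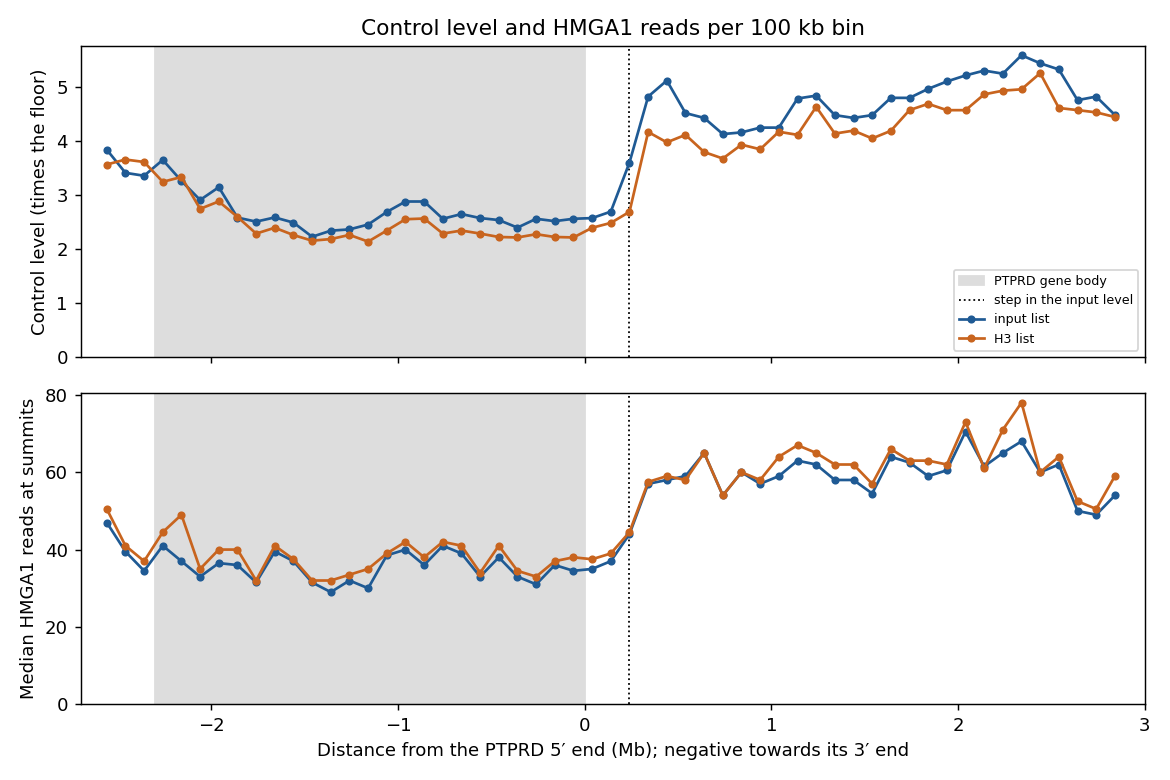
Median control level as a multiple of its floor (top) and median HMGA1 reads at summits (bottom) per 100 kb bin, by distance in Mb from the 5′ end of PTPRD, in the input list (blue) and the H3 list (orange). Both controls and the reads step up about 0.24 Mb past the gene (grey), not at its end.

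Fold enrichment, which sets the reads against the control, differed little between gene and desert. The median fold over input was 4.2 (4.05 to 4.36) in the gene and 4.06 (3.94 to 4.23) in the desert, and over H3 it was 4.75 (4.58 to 4.92) and 4.57 (4.43 to 4.75). The intervals overlapped in both lists. Per 100 kb bin the median fold over input stayed between 3.29 and 4.81, while the median reads ran from 29 to 70.5. Among peaks with a fold of at least 4 the gene minus desert differences were -0.187 over input and -0.261 over H3. That cut is on the fold itself and no interval was taken, so no direction is read from it. The last 1 Mb of the desert had the lower median of the desert, 3.83 (3.57 to 4.02) over input, against 4.17 (4.01 to 4.34) between the step and 12.5 Mb.

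Peaks with a fold of at least 8 made up 7.1% (58 of 817, interval 5.53 to 9.07) of gene peaks and 7.36% (91 of 1237, 6.03 to 8.95) of desert peaks over input, beside 7.23% of the whole input list. Over H3 they were 11.4% (83 of 729, 9.28 to 13.9) and 12.3% (144 of 1173, 10.5 to 14.3), beside 10.1% of the whole H3 list. The shares in gene and desert did not differ beyond counting error, and the input-list shares were near that of the whole list. Per Mb, these strong peaks over input numbered 14.3 in the 3′ part of the gene, 22.2 in its middle, 39.1 in its 5′ part, 40.1 in the desert from the step to 12.5 Mb and 17.0 in its last 1 Mb.

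**Figure D4:**
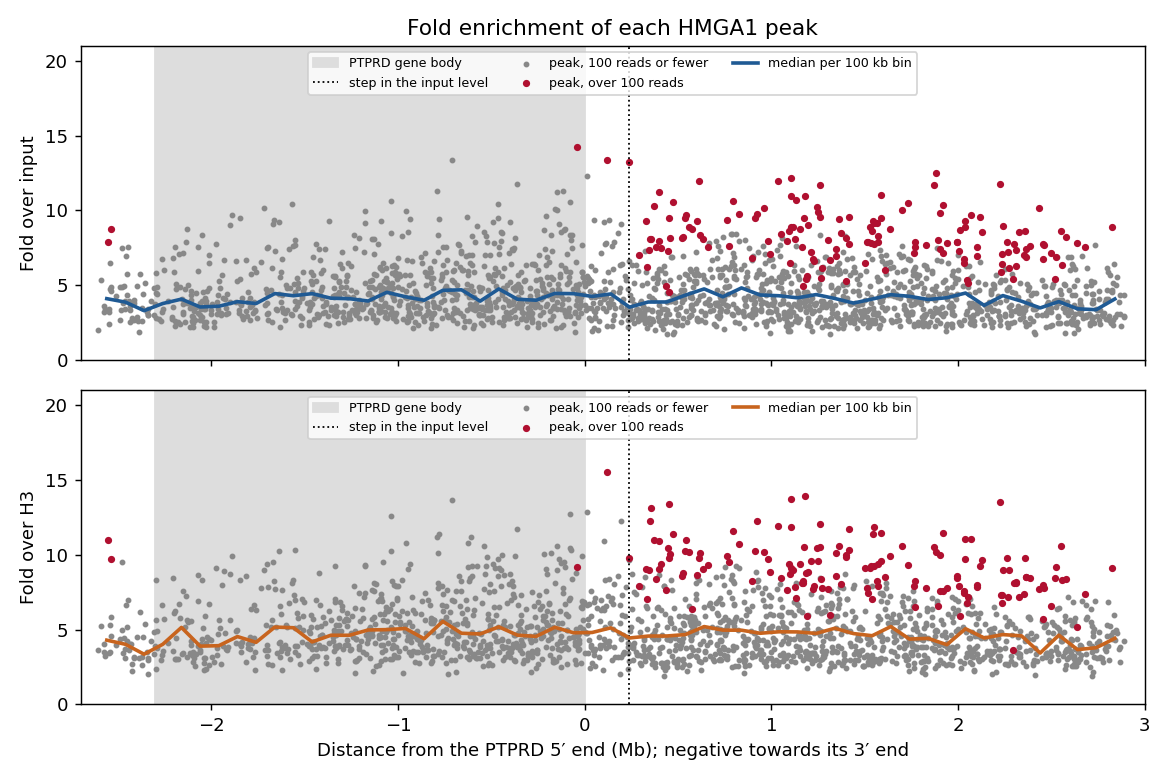
Fold of each HMGA1 peak over input (top) and over H3 (bottom) by distance in Mb from the 5′ end of PTPRD, with the median per 100 kb bin as a line and peaks of over 100 reads in red. The medians stay level through gene (grey) and desert, and nearly all peaks of over 100 reads lie past the dotted step in the input level.

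Over input, ranking by q-value and ranking by fold picked mostly different parts of the region, and over H3 less so. All of the 10 highest-q peaks of each list lay in the desert past the step, where reads are many. The first in both lists ran from 12832061 to 12833268, with 182 HMGA1 reads, a fold of 11.8 over input and 13.5 over H3, and controls at 5.22 and 4.41 times their floors. In the input list it was followed by the peak from 12493626 to 12494208 (167 reads, fold 12.5), the peak from 11870469 to 11871221 (167 reads, fold 11.7) and the peak from 11790657 to 11792528 (170 reads, fold 10.9). Ranks 5 to 7 were peaks from 11717483, 12479230 and 12528407, and ranks 8 to 10 peaks from 11645891, 11223860 and 11743722, with 136 to 163 reads and folds of 10.4 to 12.2 among these 6. For the H3 list 7 of these 10 sites were again among the top 10. Its other 3 ran from 11062207 to 11063231 (152 reads), from 10965507 to 10966076 (151 reads) and from 11713100 to 11713531 (140 reads), with folds over H3 of 13.4, 13.1 and 13.7.

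By fold over input, the first 4 peaks lay before the step. The highest ran from 10567639 to 10568165, inside PTPRD near its 5′ end, with 104 reads over an input level of 2.29 times the floor and a fold of 14.2. The H3 list gave this site a fold of 9.2, over an H3 level of 3.66 times the floor, so its rank depends on the control. The second ran from 10731033 to 10731498, 0.121 Mb into the desert, with 105 reads and folds of 13.4 over input and 15.6 over H3, the highest of the H3 list here. The third, from 9901238 to 9901775 inside PTPRD, had 93 reads and a fold of 13.4 over input and 13.7 over H3. It was the gene's highest-q peak in the H3 list. The fourth ran from 10845134 to 10845885 (123 reads, fold 13.2), just short of the step, and the fifth was the second-ranked peak by q. Of the other H3-list peaks ranked by fold, 3 lay past the step, from 11790641, 11713100 and 12832061, with folds of 13.9, 13.7 and 13.5. These 3 were also among the highest-q peaks of the H3 list named above.

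Against the whole lists, the region held far more of the highest-q peaks than of the highest-fold peaks. The input list had 441 peaks of over 100 reads, and 157 of them were in this region (35.6%, interval 31.3 to 40.2), 154 in the desert, 1 in the gene and 2 before it. The equally long 9p flanks held another 64 (telomere side) and 52 (centromere side), so such peaks were not confined to the region. For the H3 list the region held 158 of 451, and the flanks 64 and 52. Among the 1000 peaks with the highest q of the input list 158 were here, 144 in the desert and 11 in the gene, and among the 1000 with the highest fold there were 4. The H3 list gave 162 and 8. The counts by fold are near the region's share of all peaks, 0.546% and 0.741%. Folds of peaks at the control floor, which this region lacks, are understated, so the last comparison does not rank HMGA1 binding between regions.

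The 3 peaks nearest each end of PTPRD varied in height. The gene's median was 35 reads (quartiles 27 and 47), with a median fold of 4.2 over input and 4.75 over H3. The rule places the ends only to about 10 kb, so the distances are approximate. The summit nearest the 5′ end, at 10610605, belonged to a peak of 238 bp with 26 reads and a fold of 3.69 over input and 3.44 over H3. The next 2, at 10609042 and 10607232, had 36 and 46 reads, folds over input of 4.91 and 5.22 and folds over H3 of 4.85 and 6.87. The summit nearest the 3′ end, at 8311204, had 52 reads and folds of 4.49 over input and 5.61 over H3. The next, at 8312536, had 77 reads and folds of 5.8 and 8.33. The third, at 8306532 and outside the gene, had 41 reads and folds of 3.77 and 3.92. The reads at both ends overlapped, and the input levels were 3.65 to 4.48 times the floor at the 3′ end and 2.27 to 2.88 times at the 5′ end.

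Most sites were found against both controls. Of the input-list peaks of the region 89.5% (1888 of 2109, interval 88.1 to 90.8) overlapped an H3-list peak by at least 1 bp, against 65.8% of the whole list. The 9p flanks had 86.6% (84.4 to 88.4) and 88.0% (86.1 to 89.7), with intervals that overlapped that of the region. The stretches of 13q21 and 1q31 had 78.3% and 80.3%. Of the H3-list peaks 97.5% (1899 of 1948, 96.7 to 98.1) overlapped an input-list peak, against 98.3%. The input-list share was 86.8% (84.3 to 88.9) in the gene and 91.6% (89.9 to 93.0) in the desert, and 82.0% (75.8 to 86.9) in the gene's 3′ part. The 221 input-list peaks without a counterpart were low and narrow, with a median of 30 reads, a fold of 2.82 and a width of 214 bp, against 50 reads, 4.36 and 384 bp for the rest.

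Below 60 reads the share at equal reads was lower here than in the whole list. Under 20 reads it was 26.1% (12.5 to 46.5) of 23 peaks against 37.3%, an interval that includes the whole-list value. For 20 to 29 reads it was 68.2% (62.5 to 73.4) of 280 peaks against 94.4%, and for 30 to 39 reads 82.7% (79.0 to 85.9) of 463 peaks against 98.95%. For 40 to 59 reads it was 94.7% (92.7 to 96.2) of 663 peaks against 99.4%. At 60 reads or more 680 of 680 had a counterpart here, and 99.7% did in the whole list. The controls of this region are high, and a given number of reads is then a lower fold. The part of the control level in this difference was not tested.

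A total of 953 summits had the same position in both lists. At these, the H3 level relative to its floor was a median 0.911 times the input level relative to its own (quartiles 0.8 and 1.03). It was 0.911 in the gene (331 summits) and 0.909 in the desert (604). On the 9p flanks it was 0.923 (479) and 0.924 (552), and over all chromosomes, where both controls were above the floor, 0.942 (quartiles 0.802 and 1.11).

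Set beside equally long stretches, the region had more peaks than either flank on 9p, and its read level differed between gene and desert. These densities are a description, as the region was picked with its density known. The flank on the telomere side, from 2.5 to 8.0 Mb, held 205.6 input-list peaks per Mb (193.8 to 218.0) and the flank on the centromere side, to 19 Mb, 230.2 (217.7 to 243.2), beside 383.5 here. Their input levels were 3.77 and 4.16 times the floor, and their median reads 46 and 47. The gene body lay below both flanks, at 2.63 times and 35 reads, and the desert above both, at 4.78 times and 57 reads. Their median widths were 315 bp (309 to 326) and 312 bp (305 to 321), beside 358 bp (349 to 368) here. Spacings over 10 kb numbered 141 and 125 on the flanks, and 43 here. The 3′ part of PTPRD, at 238.7 peaks per Mb (205.4 to 275.9), had an interval that overlapped those of both flanks.

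The gene deserts of 13q21 (chromosome 13 from 66.75 to 72.25 Mb) and 1q31 (chromosome 1 from 187.25 to 192.75 Mb) overlapped the 9p23 desert in density over input and in spacing, and had far fewer reads per summit. They held 403.6 (387.0 to 420.8) and 424.9 (407.9 to 442.5) input-list peaks per Mb, and the 9p23 desert 428.0 (404.5 to 452.6), with overlapping intervals. Median spacing was 1701 bp (1638 to 1770) and 1624 bp (1561 to 1695), and 1679 bp in the 9p23 desert. Median width over input was 352 bp (343 to 363) and 355 bp (347 to 367), which overlapped the 361 to 393 bp of the 9p23 desert. Over H3 it was lower, at 318 bp (311 to 326) and 333 bp (323 to 339), beside 359 to 392 bp. Peaks of 1 kb or more over input made up 5.27% and 5.43%, beside 7.92% in the 9p23 desert. Median reads were 21 and 22 there and 57 in the 9p23 desert, with input levels of 1.14 and 1.2 times the floor against 4.78. Over H3 the 9p23 desert was denser, with 405.9 peaks per Mb against 330.5 (315.5 to 346.1) and 358.0 (342.4 to 374.2). H3 was at its floor at 60.1% and 53.0% of the peaks of those deserts and at 0% here. The share of peaks with a fold of at least 8 over input was higher in them, at 11.2% (9.97 to 12.6) and 14.6% (13.2 to 16.1). The part of the control level in these differences was not tested.

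The limits of the region were set by position and not by a change in the peaks. The last input-list summit below 8.0 Mb, at 7998675, had 60 reads and a fold of 5.88, and the first inside, at 8002127, 36 reads and a fold of 1.97. At the other end the last summit inside, at 13499111, had 35 reads and a fold of 2.83, and the first outside, at 13514756, 62 reads and a fold of 3.91. The upper limit thus falls in one of the long gaps of over 10 kb.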

How the data were processed

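Peaks were called with MACS2 on hg19, per the submitters' processing notes; which version, aligner or filters were used is not given in the sources used here. Each deposited list gives, per peak, the authors' interval, summit offset, score, fold (a ratio of HMGA1 over the control at the summit) and p-value and q-value as −log10; the deposited score follows the q-value. Peak names carry a prefix other than HMGA1, so list titles and labels were used to take both lists as HMGA1 lists.

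MACS2 was taken to form the fold from pileup plus 1 over control plus 1 and the p-value from a Poisson tail. The whole pileup giving back each printed p-value within 0.001 was found for 385953 of 385953 input-list and 263032 of 263033 H3-list peaks. In the H3 list HMGA1 reads were first multiplied by 0.787, fitted on 400 peaks, so folds of both lists differ in more than the control. The arithmetic of this recovery was tested on simulated data made with the same formula, which does not test the formula itself. Total read numbers are unknown. Each chromosome was counted up to its final base under a peak.

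Density intervals are exact Poisson, shares Wilson, medians order-statistic. No test was run. Peaks named were the 10 of highest q-value score, the 5 of highest fold and the 5 widest per list, the fullest and emptiest bins and the 3 longest gaps; further peaks near the gene ends and limits were chosen after their values were seen. The region, comparison stretches and measures were chosen with earlier results of these data known. RefSeq (GRCh38) gave gene order and strand only. Computations used Python 3.11.15, numpy 2.4.6, pandas 2.3.3, scipy 1.17.1, statsmodels 0.14.6 and matplotlib 3.10.9.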

Additional observations from a re-analysis of the deposited data

How the results depend on the processing

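With 1 library per antibody, replicates could not be left out. No paired analysis was possible because each group has a single library. Of 76 recomputed values 43 moved by less than counting error, 29 moved by more and 4 reversed. The cause was not tested except where fewer peaks or bases entered. The alternatives on the control step, the gene's 5′ part and scaled reads were chosen after seeing the data.

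With the gene's 5′ part alone the density ratio of gene to desert reversed, to 1.05 (input list) and 1.02 (H3 list), though the density intervals overlapped. The difference in covered bases was then -1.15 and -1.32 percentage points, that in spacing 17.5 and 126 bp and that in fold 0.376 over input. With the desert before the control step alone the ratio was 0.99 and 0.949, the difference in covered bases -1.96 and -2.53 percentage points and that in spacing 69.5 bp (H3 list). With desert reads and control multiplied by 0.55 (input list) and 0.533 (H3 list), 1221 of 1237 and 1148 of 1173 desert peaks still passed the weakest p-value of their list, and the ratio was 0.841 and 0.798. These peaks had already been called at the higher level and were held only to that weakest value. The scaling therefore cannot show what calling at the lower level would find, and nothing is concluded from it.

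With a fold of at least 4 the difference in median fold reversed in sign, to -0.187 and -0.261. That cut is on the fold itself, and the intervals of the uncut medians overlapped. Covered bases then differed by -4.37 and -4.54 percentage points, width by -94.5 and -85 bp, spacing by 490.5 bp (input list), and the density ratio was 0.861 (H3 list). With a −log10 q of at least 5 spacing differed by 687 bp (H3 list). Without the last 1 Mb covered bases differed by -8.78 and -9.2 percentage points.

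Density over the autosomes was 3.63 and 4.35 times with a −log10 q of at least 5, 2.37 and 2.91 with a fold of at least 4, and 2.71 and 3.64 when gaps of 1 Mb or more without a peak were subtracted. Counterpart shares were 85.2% (input list) and 92.2% (H3 list) with 50% of both peaks shared, and 88.1% and 95.4% with summits within 200 bp. The fewest HMGA1 reads at a summit here were 15 (input list) and 17 (H3 list), against 8 and 11 in the whole lists, and the part of the control level in this was not tested.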
